A study of Mus musculus with 22 samples.

Results

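The cells described here were chosen by their own transcripts as endothelial cells of arterial type in the mouse embryo, and this name is that of the rule. A cell was taken when it held at least 100 counts, at least 3 Cdh5 transcripts, less than 10% of its counts in hemoglobin (Hbb and Hba-a1/2 together) and at least 2 transcripts of Dll4 and Hey1 summed. In all, 342 of 37575 cells met this rule, 189 of 21194 in the sections labelled Knockout and 153 of 16381 in the sections labelled Wildtype. They are called gated cells. Without the requirement on Dll4 and Hey1 the rule gave 1627 Cdh5-gated cells, so 1285 Cdh5-gated cells remained outside it, and another 23936 cells with at least 100 counts were not Cdh5-gated.

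Transcripts of 998 panel genes were counted by CosMx, which reads barcoded hybridization probes in a tissue section and assigns them to segmented cells. By their labels, 13 sections were Knockout and 9 were Wildtype. By the study's account, the sections came from 1 Nr4a1-/-Nr4a2-/- embryo and 1 Nr4a1+/+Nr4a2+/+ embryo. Both embryos were of embryonic day 10 (E10), were fresh frozen and were cut along the region of the aorta, gonads and mesonephros, where the first blood stem cells form. With 1 embryo per genotype, a p-value over sections measures only the spread between sections of the same embryo, and genotype, embryo and slide cannot be told apart. The study's own account assigns more intact sections to the wild-type embryo than to the mutant, the reverse of the labels, so groups are named by their label throughout. The deposited tables of each genotype are also numbered as set 1 or set 2, and what the set stands for, possibly a slide, is not given in the sources used here. Replicate numbers below follow the order of the samples and pair nothing.

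Cdh5 encodes VE-cadherin, the adhesion molecule of endothelial junctions. Arteries are set apart from veins by Notch signaling: Dll4 is the Notch ligand of arterial endothelium, Notch1 its receptor and Hey1 a transcriptional repressor that Notch switches on. In the dorsal aorta a few of these cells switch on Runx1, the transcription factor that starts blood formation, and leave the vessel wall as blood cells. The transcription factors Nr4a1 and Nr4a2 are immediate-early nuclear receptors, and the study asked whether this transition needs them.

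A section held between 814 and 3431 cells and between 169038 and 887904 counts. Gated cells were among the deeper cells, with a median of 601 counts in the Knockout-labelled and 600 in the Wildtype-labelled sections, against 459.5 and 436 in the other Cdh5-gated cells and 307 and 299 in all other cells. Each gated cell was therefore set beside the other Cdh5-gated cell of its section that was nearest in total count, within 20%. This gave 331 matched pairs, with median totals of 592 and 576 in the Knockout-labelled sections and of 584 and 566 in the Wildtype-labelled sections. No 2 of the gated cells had identical counts. Cell names recur between sections (3410 of 34165 names occur in more than 1 section), because cells are numbered within fields of view.

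The targeted genes were at low level in gated cells of both embryos, and their ranges overlapped. Nr4a1 ran over the 9 Knockout-labelled sections with at least 10 gated cells from 1.28 to 4.98 (median 2.81) transcripts per 10000 counts, and over the 7 such Wildtype-labelled sections from 0.661 to 5.12 (median 2.55). Nr4a2 ran from 0 to 6.94 (median 3.29) and from 0 to 6.09 (median 3.31). Nr4a3, the third member of the family and not targeted, ran from 1.44 to 7.02 (median 3.29) and from 2.65 to 8.06 (median 5.33). None of the 3 passed the filter on low counts. Over all cells of a section Nr4a1 ran from 1.74 to 2.65 (median 2.25) in the 13 Knockout-labelled and from 2.29 to 3.20 (median 2.72) in the 9 Wildtype-labelled sections, and Nr4a2 from 3.08 to 5.09 (median 4.12) and from 3.37 to 6.13 (median 4.73), again with overlap. The values in gated cells rest on 33 and 22 Nr4a1 counts and on 41 and 28 Nr4a2 counts in all, and where the probes lie relative to the deleted sequence is not given in the sources used here, so they do not check the labels.

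Among the gated cells of the Knockout-labelled sections, 49 (25.9%) held Dll4 without Hey1, 46 (24.3%) held Hey1 without Dll4 and 94 (49.7%) held both. In the Wildtype-labelled sections these were 44 (28.8%), 36 (23.5%) and 73 (47.7%). The highest sum of both genes in a cell was 11 in the former and 7 in the latter. Just inside the threshold, 94 and 82 gated cells had a sum of exactly 2, and just outside it 196 and 171 Cdh5-gated cells had a sum of 1.

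The same sum of 2 was also met by cells without Cdh5. Of Cdh5-negative cells matched on total count to the Cdh5-gated cells, 11.4% (95% Wilson interval 9.54% to 13.7%) in the Knockout-labelled and 13.8% (11.5% to 16.6%) in the Wildtype-labelled sections reached it, against 20.04% (17.6% to 22.8%) and 21.8% (18.9% to 25.03%) of the Cdh5-gated cells. Such intervals cover counting error only. Transcripts assigned from neighboring cells can enter a segmented cell, and their part in the gate was not tested.

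Other arterial genes were read beside the name, as a description. The 7 arterial genes that the gate did not use (Efnb2, Hey2, Notch1, Jag1, Jag2, Cxcr4 and Mecom) summed to 63.7 transcripts per 10000 counts in gated and 45.2 in matched cells of the Knockout-labelled sections, and to 69.5 and 53.0 in the Wildtype-labelled sections. The 3 venous and sinusoidal genes (Ephb4, Ackr1 and Gpr182) summed to 26.7 and 26.9 in the former and to 29.9 and 30.3 in the latter, close to each other in gated and matched cells. Markers of other cell types did not reach 0: the 8 macrophage genes summed to 39.1 and 48.2 in gated cells, near their level of 42.2 and 54.6 in all other cells. The arterial sum was 37.0 and 43.9 in all other cells. Its section values overlapped, from 52.6 to 78.7 in gated and 26.6 to 71.8 in matched Knockout-labelled cells. In Wildtype-labelled cells they ran from 56.4 to 94.2 and from 35.3 to 73.8. The 17 pan-endothelial genes were also higher in gated than matched cells (302 and 252, 303.5 and 241). Whether the arterial sum rose beyond them was not tested.

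The embryos did not differ detectably in how many gated cells a section held. The number per section ran from 2 to 40 (median 12, mean 14.5 ± 9.60 SD, n = 13) in the Knockout-labelled and from 2 to 26 (median 18, mean 17 ± 7.33 SD, n = 9) in the Wildtype-labelled sections, a difference of -2.46 cells (two-sided exact permutation test over sections, p = 0.537). The gated share of Cdh5-gated cells ran from 14.7% to 33.3% (mean 20.3% ± 5.45 SD) and from 6.25% to 39.3% (mean 21.8% ± 8.44 SD), p = 0.630 by the same exact test. When every Cdh5-gated cell was thinned to 100 counts, the share fell to 2.08% ± 1.22 (SD, n = 13) and 1.93% ± 0.696 (SD, n = 9), with an exact p of 0.741. The groups overlapped in all 3 measures, and 1 section of each embryo (Knockout replicate 13 and Wildtype replicate 4) held only 2 gated cells and entered no contrast below.

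**Figure D1:**
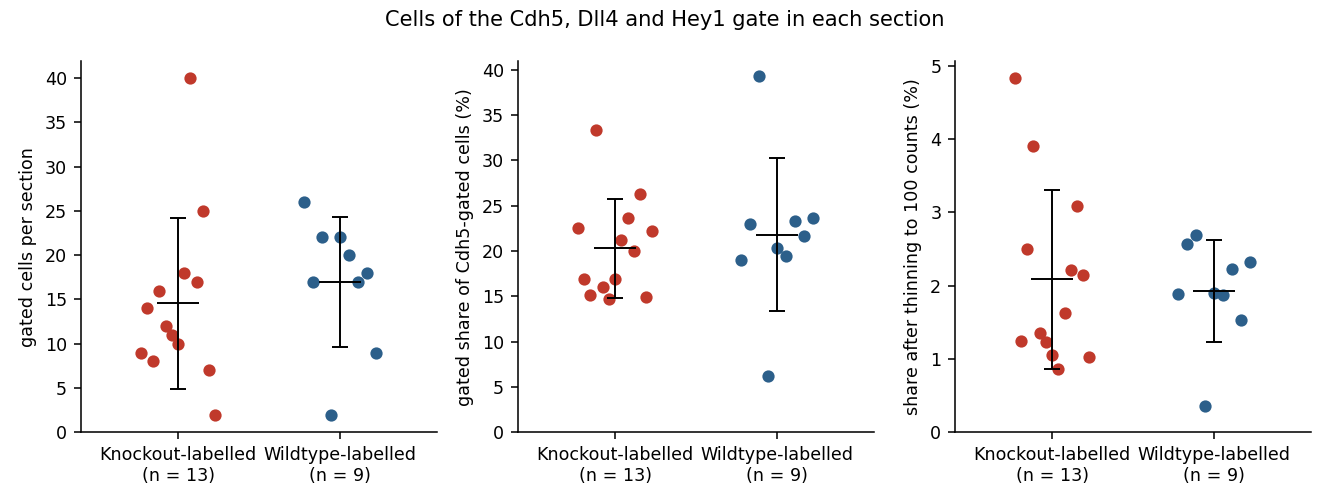
Each point is a section of the Knockout-labelled (red) or Wildtype-labelled (blue) embryo, and the black marks give the mean ± SD; the y axes show gated cells per section, the gated share of Cdh5-gated cells in percent, and that share after thinning to 100 counts. The groups overlap in each panel, with 2 to 40 and 2 to 26 gated cells per section.

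Gated cells carried more transcripts of the vascular basement membrane than Cdh5-gated cells of like depth, in both embryos. Col4a1 and Col4a2, the chains of the main type IV collagen, Col18a1, the collagen that yields endostatin, Igfbp3, a binding protein of insulin-like growth factors, and Igf2, one of those factors, rose in both. Smad6, Fn1 and Sparc rose in the Knockout-labelled embryo and Vwf, Mecom and Tie1 in the Wildtype-labelled embryo. Counts were summed per section over gated and over matched cells and compared with the section as a block, over 12 Knockout-labelled sections (180 pairs) and 8 Wildtype-labelled sections (148 pairs) with at least 5 pairs. Of 169 genes tested, without the genes of the gate, 10 passed an adjusted p of 0.05 (edgeR) in the former (5.92% of genes tested), 8 of them higher (4.73%) and 2 lower (1.18%), and 12 in the latter (7.1%), 8 higher (4.73%) and 4 lower (2.37%). All 17 genes that passed in either embryo had the same sign in both.

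**Figure D2:**
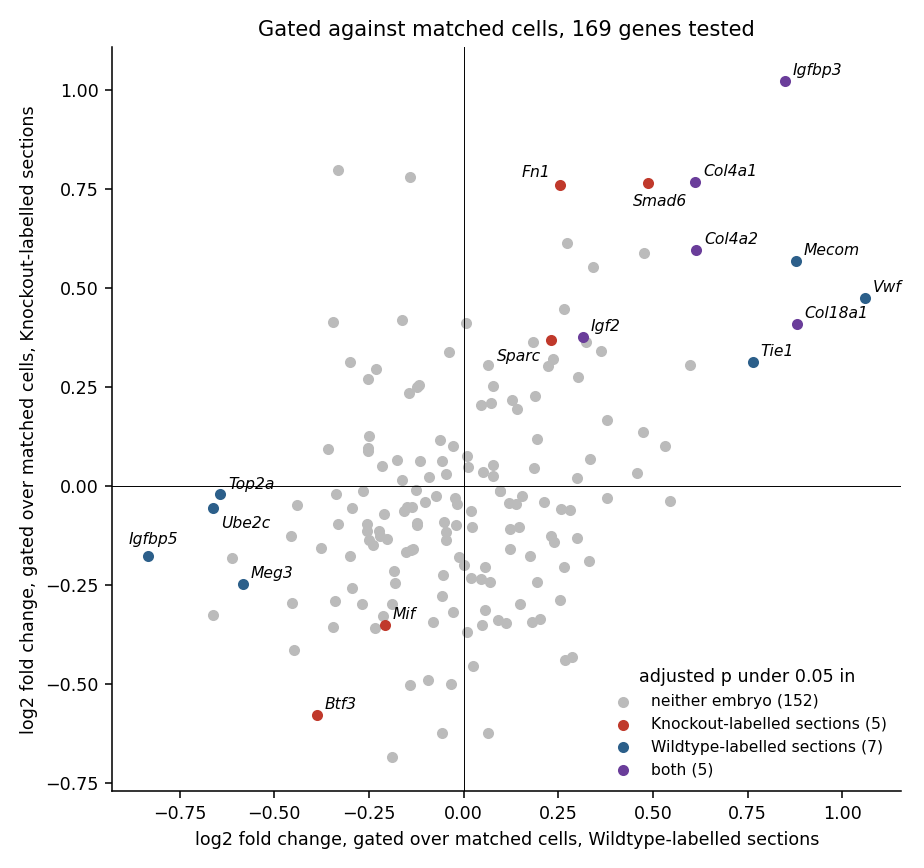
Each point is 1 of the 169 genes tested, with the log2 fold change of gated over matched cells in the Wildtype-labelled sections on the x axis and in the Knockout-labelled sections on the y axis; colors mark where the adjusted p was under 0.05. The 5 purple genes passed in both embryos and lie at the upper right.

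Col4a1 had the lowest adjusted p of these genes in the Knockout-labelled sections and Col18a1 in the Wildtype-labelled sections. In the Knockout-labelled sections Col4a1 ran from 138 to 336 (median 187) transcripts per 10000 counts in gated cells and from 55.5 to 151 (median 120.1) in matched cells, and it was higher in 12 of 12 sections (log2 fold change 0.77 ± 0.10 SE, edgeR adjusted p = 1.11e-09). It ran in the Wildtype-labelled sections from 113 to 316 (median 167) and from 73.2 to 154 (median 117), higher in 8 of 8 (0.61 ± 0.11 SE, adjusted p = 5.89e-05). The ranges of gated and matched cells overlapped, but within a section the gated cells were always the higher.

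Col4a2 followed the same course. Its level ran from 53.5 to 163 (median 93.2) in gated and from 44.4 to 87.9 (median 59.0) in matched cells of the Knockout-labelled sections, higher in 12 of 12 (log2 fold change 0.60 ± 0.11 SE, edgeR adjusted p = 4.47e-05). The Wildtype-labelled sections had it from 66.2 to 156 (median 85.1) and from 48.4 to 78.4 (median 56.6), higher in 8 of 8 (0.61 ± 0.13 SE, adjusted p = 0.000266).

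Both genes start next to each other on opposite strands of chromosome 8, and their promoters are shown because they moved together. In RefSeq sequence of GRCm38.p6 the window from 250 bases before to 50 bases after the start is chr8:11312777-11313076 (minus strand) for Col4a1 and chr8:11312555-11312854 (plus strand) for Col4a2. Each is given 5′ to 3′ on the strand of its gene, and capitals mark the 78 bases that the windows share.
Col4a1: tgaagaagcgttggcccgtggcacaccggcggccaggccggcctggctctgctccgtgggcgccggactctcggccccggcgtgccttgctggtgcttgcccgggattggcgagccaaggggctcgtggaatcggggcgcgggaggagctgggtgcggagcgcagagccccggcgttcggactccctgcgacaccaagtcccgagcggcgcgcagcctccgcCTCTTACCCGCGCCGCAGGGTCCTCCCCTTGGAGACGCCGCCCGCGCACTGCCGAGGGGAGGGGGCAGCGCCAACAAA
Col4a2: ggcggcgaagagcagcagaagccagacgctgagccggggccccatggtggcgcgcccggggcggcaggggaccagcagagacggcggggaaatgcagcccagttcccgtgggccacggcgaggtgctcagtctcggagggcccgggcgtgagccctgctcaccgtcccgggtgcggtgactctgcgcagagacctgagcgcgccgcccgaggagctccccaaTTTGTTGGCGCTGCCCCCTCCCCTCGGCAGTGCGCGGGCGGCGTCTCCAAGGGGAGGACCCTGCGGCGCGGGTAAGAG
The shared bases read as reverse complements of each other in the 2 lines. RefSeq's gene record of Col4a1 begins at base 11312889, further upstream than the start used for its window, and overlaps that of Col4a2, which begins at base 11312805, by 85 bases. The data hold no readout of the promoter itself.

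Col18a1 ran in gated cells of the Knockout-labelled sections from 73.6 to 137 (median 91.4) transcripts per 10000 counts against 44.4 to 91.6 (median 73.5) in matched cells, higher in 10 of 12 sections (log2 fold change 0.41 ± 0.12 SE, edgeR adjusted p = 0.0337). In the Wildtype-labelled sections it ran from 56.4 to 168 (median 90.5) against 34.7 to 72.2 (median 50.1), higher in 8 of 8 (0.88 ± 0.15 SE, adjusted p = 1.97e-05). Fn1, the fibronectin gene, was higher in 11 of 12 Knockout-labelled sections, from 31.2 to 73.8 (median 45.6) against 16.6 to 38.8 (median 27.9), with a log2 fold change of 0.76 ± 0.15 SE (adjusted p = 8.21e-05). Its Wildtype-labelled log2 fold change was 0.25 ± 0.17 SE (adjusted p = 0.545), and the difference between the embryos did not pass (0.51, p = 0.0285 before and 0.640 after adjustment by edgeR). Sparc, a collagen-binding matrix protein, rose in the Knockout-labelled sections by a log2 fold change of 0.37 (adjusted p = 0.0396) and had 0.23 (adjusted p = 0.487) in the others.

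Of the list, 6 of the 7 basement membrane genes could be tested, and all 6 lay above 0 in both embryos. In the Knockout-labelled sections 5 of them rose, with a median log2 fold change of 0.50 over the 6, and in the Wildtype-labelled sections 3 rose, with a median of 0.60. Over all genes tested 4.73% were called higher in each embryo. The list was chosen with earlier results of these data known, so its count is no independent support. The medians over all 169 genes were -0.05 and -0.02. Summed over its 7 genes, the list gave 549.5 transcripts per 10000 counts in gated and 362 in matched cells of the Knockout-labelled embryo, and 491 and 334 in the Wildtype-labelled embryo.

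**Figure D3:**
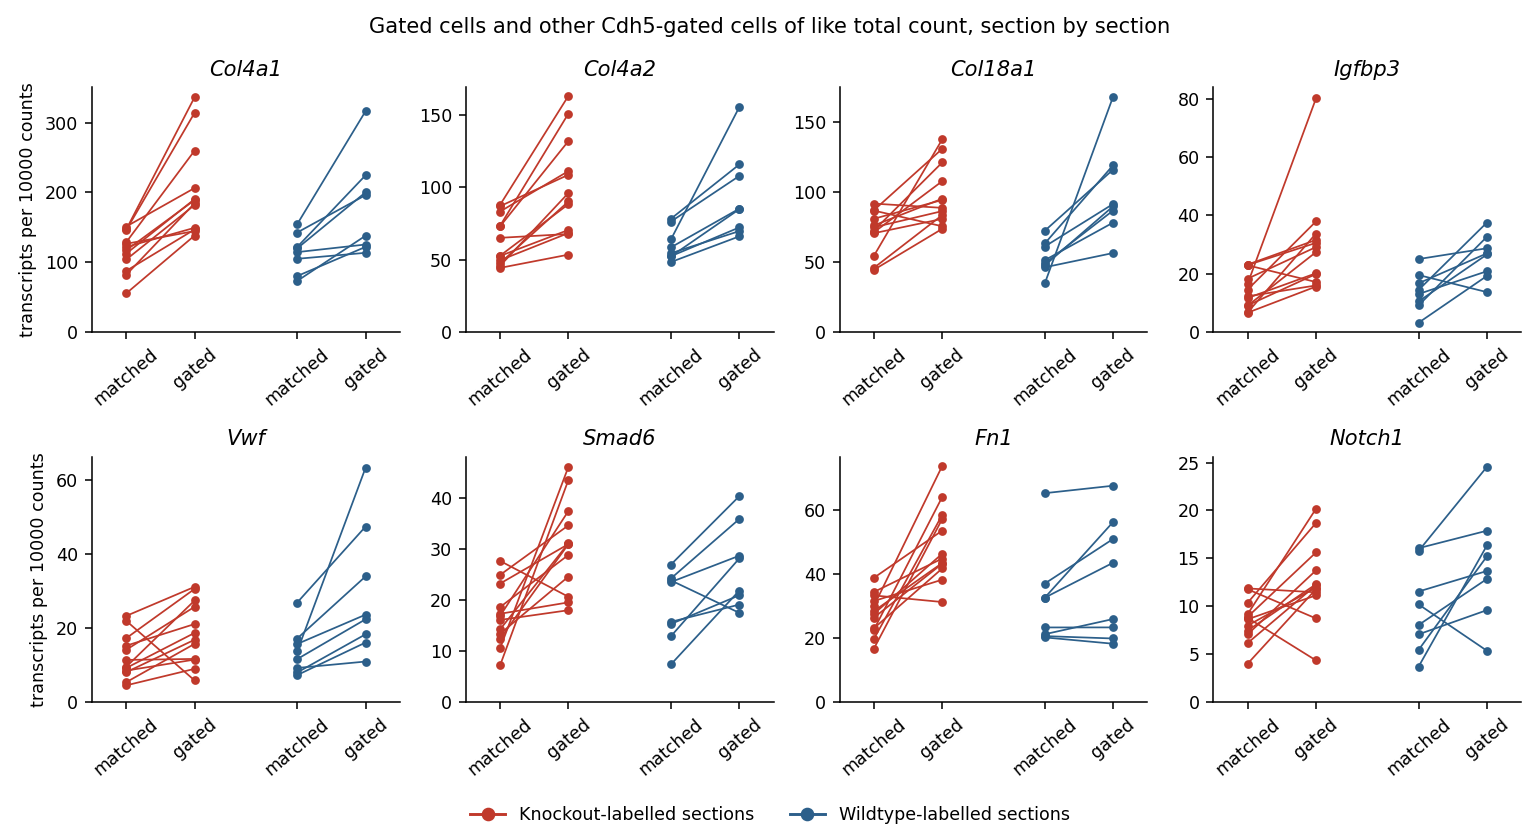
Each line joins the matched and the gated cells of a section of the Knockout-labelled (red, 12 sections) or Wildtype-labelled (blue, 8 sections) embryo; the y axis gives transcripts per 10000 counts of the named gene. Col4a1 and Col4a2 rise along every line, while Vwf, Smad6, Fn1 and Notch1 include lines that fall.

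Igfbp3 and Igf2 rose in both embryos, while Igfbp5, of the same family as Igfbp3, had negative log2 fold changes (-0.18 and -0.83) and Igf1 and Igf2r did not pass in either embryo. Igfbp3 ran from 15.6 to 80.1 (median 28.3) in gated and from 6.66 to 23.2 (median 13.4) in matched cells of the Knockout-labelled sections, higher in 11 of 12 (log2 fold change 1.02 ± 0.21 SE, edgeR adjusted p = 0.000389). Over the Wildtype-labelled sections it ran from 13.7 to 37.6 (median 26.8) and from 3.21 to 25.045 (median 13.7), higher in 7 of 8 (0.85 ± 0.24 SE, adjusted p = 0.0198). Igf2 rose less, by log2 fold changes of 0.38 ± 0.08 SE (adjusted p = 0.000389) and 0.32 ± 0.10 SE (adjusted p = 0.0310), and was higher in 12 of 12 and 8 of 8 sections. Under other settings the log2 fold change of Igf2 in the Wildtype-labelled sections went as low as 0.04, its value with pairs also matched on Cdh5.

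Of the arterial genes outside the gate, 4 of 7 had enough counts to be tested. Mecom, a transcription factor of arterial and of hematopoietic cells, was higher in 7 of 8 Wildtype-labelled sections, from 8.38 to 21.5 (median 16.2) against 3.21 to 14.6 (median 7.14), with a log2 fold change of 0.88 ± 0.26 SE (edgeR adjusted p = 0.0246). In the Knockout-labelled sections it was higher in 9 of 12 and did not pass (0.57 ± 0.25 SE, adjusted p = 0.151). Notch1 had log2 fold changes of 0.59 ± 0.24 SE (adjusted p = 0.117, higher in 9 of 12) and 0.48 ± 0.25 SE (adjusted p = 0.380, higher in 7 of 8). Efnb2, the ephrin that marks arteries, had 0.61 ± 0.23 SE (adjusted p = 0.0872) and 0.27 ± 0.25 SE (adjusted p = 0.705), and Jag1, another Notch ligand, had 0.41 (adjusted p = 0.332) and 0.01 (adjusted p = 0.985). The median of the 4 was 0.58 and 0.38.

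The counts of Hey2, Jag2 and Cxcr4 were too low for the test. Hey2, the repressor nearest to Hey1, had a median of 5.06 transcripts per 10000 counts in gated and 2.77 in matched cells of the Knockout-labelled sections, and of 4.20 and 5.45 in the Wildtype-labelled sections. Jag2 had medians of 4.96 and 2.63 and of 5.29 and 3.39, and was higher in gated cells of 9 of 12 and 6 of 8 sections. Of the 11 Notch pathway genes besides Dll4 and Hey1, 3 were tested (Notch1, Jag1 and Rbpj) and none passed in either embryo. Ephb4, the receptor that marks veins, did not pass in either embryo, with log2 fold changes of 0.04 ± 0.20 SE and 0.05 ± 0.23 SE.

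Of endothelial genes outside the arterial list, Vwf and Tie1 passed. Vwf, which encodes the clotting glycoprotein of endothelial granules, ran from 10.9 to 63.5 (median 23.0) against 7.22 to 26.9 (median 12.6) in the Wildtype-labelled sections and was higher in 8 of 8 (log2 fold change 1.06 ± 0.22 SE, edgeR adjusted p = 0.000266). Over the Knockout-labelled sections it ran from 5.76 to 31.2 (median 17.7) against 4.44 to 23.3 (median 10.4), higher in 11 of 12 without passing (0.47 ± 0.21 SE, adjusted p = 0.155). Tie1, an orphan receptor of the angiopoietin system, rose in the Wildtype-labelled sections by 0.76 ± 0.21 SE (adjusted p = 0.0156) and had 0.31 ± 0.19 SE (adjusted p = 0.347) in the others.

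Over the pan-endothelial list, 15 of 17 genes were tested. None passed in the Knockout-labelled sections and 2 rose in the Wildtype-labelled sections, with medians of 0.17 and 0.34. Over all genes tested, 4.73% were called higher in each embryo. Their summed level was 302 in gated and 252 in matched cells of the Knockout-labelled embryo and 303.5 and 241 in the Wildtype-labelled embryo. Cdh5 itself, which chose both sets of cells, had log2 fold changes of 0.08 and 0.23. Whether the basement membrane genes would rise at equal levels of all endothelial genes was not tested. With pairs matched on total count and on Cdh5 count, 5 genes passed in the Wildtype-labelled sections in place of 12. Col4a1, Col4a2 and Col18a1 still passed in both embryos, with log2 fold changes of 0.73, 0.56 and 0.48 in the Knockout-labelled (edgeR adjusted p = 0.000514, 0.0209 and 0.0215) and of 0.60, 0.63 and 0.59 in the Wildtype-labelled sections (adjusted p = 0.0320 for each). Igfbp3 also passed in both, with 0.83 and 1.06 (edgeR adjusted p = 0.0332 and 0.0320). Igf2 passed in the Knockout-labelled sections (0.39, adjusted p = 0.0209) but not in the Wildtype-labelled sections (0.04, adjusted p = 0.955).

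Smad6, the inhibitor of bone morphogenetic protein signaling that is rich in arterial endothelium, ran from 17.9 to 46.0 (median 30.9) in gated and from 7.11 to 27.6 (median 16.4) in matched cells of the Knockout-labelled sections, higher in 11 of 12 (log2 fold change 0.76 ± 0.19 SE, edgeR adjusted p = 0.00231). In the Wildtype-labelled sections it was higher in 7 of 8 (0.49 ± 0.21 SE, adjusted p = 0.218). Of the 12 genes of the BMP and TGF-beta list, 4 were tested and Smad6 alone passed, in the Knockout-labelled sections, beside 4.73% called higher over all genes tested there.

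With both sets taken, the genes that fell were fewer than those that rose. In set 2 alone, 3 rose and 5 fell in the Wildtype-labelled sections. Over both sets, the genes that fell in the Wildtype-labelled sections were Igfbp5, another binding protein of insulin-like growth factors, Ube2c and Top2a, both of dividing cells, and the long noncoding RNA Meg3. Top2a ran from 12.7 to 32.8 (median 20.7) in gated and from 23.8 to 40.6 (median 33.8) in matched cells, lower in 8 of 8 sections (log2 fold change -0.64 ± 0.18 SE, edgeR adjusted p = 0.0198), while in the Knockout-labelled sections it had -0.02 ± 0.15 SE (adjusted p = 0.946). Ube2c had -0.66 (adjusted p = 0.0491), Igfbp5 -0.83 (adjusted p = 0.0457) and Meg3 -0.58 (adjusted p = 0.0397) in the Wildtype-labelled sections. In the Knockout-labelled sections Btf3, which guards nascent proteins, and Mif, a cytokine, fell by 0.58 (adjusted p = 0.0337) and 0.35 (adjusted p = 0.0435) on the log2 scale. Of the proliferation list 10 of 13 genes were tested, all 10 lay below 0 in the Knockout-labelled sections with none past the threshold (median -0.08), and in the Wildtype-labelled sections 7 lay below and 3 above 0, and 2 fell (median -0.10), beside 2.37% called lower over all genes tested.

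The calls were also recomputed without each of the 20 sections in turn, and the genes called kept their sign wherever they were tested (20 omissions, 18 for Mecom). For the Knockout-labelled sections Col4a1, Col4a2, Igfbp3, Igf2, Smad6 and Fn1 passed under all 20 omissions. Btf3 was lost without Knockout replicate 2, 3, 4 or 7 (edgeR adjusted p up to 0.105), Col18a1 under 9 omissions (up to 0.134), Mif under 11 (up to 0.173) and Sparc under 12 (up to 0.110). In the Wildtype-labelled sections Col4a1, Col4a2, Col18a1 and Vwf passed under all 20. Igfbp3 was lost without Wildtype replicate 2, 6, 7 or 9 (edgeR adjusted p up to 0.0939), Tie1 without the same 4 (up to 0.0722), Mecom without 1, 2, 6 or 7 (up to 0.123) and Top2a without 3, 6 or 9 (up to 0.0824). Igfbp5 and Meg3 were lost under 6 omissions each (up to 0.133 and 0.299), Ube2c under 10 (up to 0.184) and Igf2 under 12 (up to 0.177). Settings other than omissions also ended calls. In the Wildtype-labelled sections Meg3 lost its call in 9 of 11, Ube2c in 8 of 11, Top2a and Igf2 in 6 of 11 each, Tie1 in 5 of 11, Igfbp5 and Mecom in 4 of 6 each, Col4a2 in 3 of 11 (edgeR adjusted p up to 0.0976), Col4a1 and Igfbp3 in 2 of 11 each (up to 0.0709 for Col4a1), Vwf in 2 of 10 (up to 0.0855) and Col18a1 in 0 of 11. For the Knockout-labelled calls the losses were 9 of 11 for Mif, 5 of 10 for Btf3, 4 of 11 for Col18a1 and Sparc, 3 of 11 for Igf2, 1 of 11 for Fn1, Igfbp3 and Smad6 and 0 of 11 for Col4a1 and Col4a2.

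When the effect was averaged over both embryos in the same fit, a contrast added after seeing the data, 23 genes passed (13.6% of genes tested), of which 13 rose (7.69%) and 10 fell (5.92%). The balance of rises and falls moved with the setting: with pairs also matched on Cdh5, 6 genes rose and 1 fell, with Cdh5 of at least 5, 8 rose and 2 fell, without the filter on low counts 11 rose and 0 fell, and in set 1 alone 6 rose and 0 fell, while in set 2 alone 7 rose and 7 fell, with a sum of at least 3, 14 rose and 10 fell, and without the highest 5% of totals 10 rose and 9 fell. In the average Notch1 passed (mean log2 fold change 0.53 ± 0.17 SE, edgeR adjusted p = 0.0257), and so did Flt1, the receptor that holds back VEGF (0.45, adjusted p = 0.0310). Efnb2 did not (adjusted p = 0.0775). Among the genes that fell only in this average were Hmgb2 (-0.21), Hsp90ab1 (-0.28), Naca (-0.28), Tubb5 (-0.27) and Ybx3 (-0.49), of chromatin, protein folding, translation, tubulin and RNA binding. The call for Notch1 was lost without Wildtype replicate 7 (edgeR adjusted p = 0.0517) or 9 (adjusted p = 0.0615), and that for Flt1 under 8 of 20 omissions (adjusted p up to 0.109). Tubb5 lost its call under 9 of 20 omissions, Hmgb2 under 5 of 20 and Ybx3 under 5 of the 15 in which it was tested. Under other settings Ybx3 lost its call in 6 of 6, Tubb5 in 9 of 11, Hmgb2, Naca and Flt1 in 6 of 11 each, Hsp90ab1 in 4 of 11 and Notch1 in 3 of 6. With pairs also matched on Cdh5, Hmgb2, Hsp90ab1, Naca and Tubb5 did not pass (edgeR adjusted p = 0.434, 0.124, 0.453 and 0.316).

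No gene differed between the embryos in this contrast. The test of the difference gave 0 genes past the threshold among 169 (lowest edgeR adjusted p = 0.640), with 12 at an unadjusted p under 0.05, and DESeq2 also called 0, with 8 at an unadjusted p under 0.05. In edgeR 1 gene passed when pairs were also matched on Cdh5 or when the sections of set 1 were taken alone. The lowest p-values belonged to Top2a, Col18a1 and Acta2. The smooth muscle genes Acta2 and Tagln had log2 fold changes of 0.80 (adjusted p = 0.117) and 0.78 (adjusted p = 0.0872) in the Knockout-labelled sections and of -0.33 (adjusted p = 0.726) and -0.14 (adjusted p = 0.901) in the Wildtype-labelled sections. All 5 mural genes tested, of 10 in the list, lay above 0 in the former (median 0.42) and below 0 in the latter (median -0.16), and none passed. The summed mural level in gated cells ran from 207 to 464 (median 315) transcripts per 10000 counts against 182 to 306 (median 265) in matched cells of the Knockout-labelled sections, and from 145 to 387 (median 188) against 184 to 309 (median 227) in the others. Its part in the genes that rose was not tested.

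The 2 gate genes were read against each other, each in cells chosen by the other alone. In the Wildtype-labelled sections, Cdh5-gated cells with at least 2 Hey1 transcripts had 14.5 ± 4.88 (SD, n = 8 sections) Dll4 transcripts per 10000 counts, against 4.995 ± 3.25 in cells of like total count without Hey1. Dll4 was higher in 8 of 8 sections, and the two-sided exact sign-flip permutation p of 0.0078125 is the smallest that 8 sections allow. In the Knockout-labelled sections the means were 12.4 ± 7.44 and 6.35 ± 5.18 (SD, n = 12), higher in 9 of 12 (exact p = 0.0664). Hey1 in cells with at least 2 Dll4 transcripts was 13.96 against 7.01 in the Wildtype-labelled (higher in 5 of 7 sections, exact p = 0.125) and 14.7 against 9.13 in the Knockout-labelled sections (6 of 12, exact p = 0.335). These p-values were not adjusted for their number. Cdh5-gated cells with at least 2 transcripts of either gene are gated cells by definition. The values therefore describe the gate's own genes and are no independent support for its name. The picture depended on the number of transcripts asked for. With at least 1 in place of 2, Dll4 in Hey1-positive cells was higher by 6.58 in the Knockout-labelled (exact p = 0.00342) and by 0.648 in the Wildtype-labelled sections (exact p = 0.840).

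The level of Col4a1 also stepped up with the number of Dll4 and Hey1 transcripts in a cell, which is given as a description. In the Knockout-labelled embryo Col4a1 was at 124 (95% Poisson interval 119 to 128) transcripts per 10000 counts in Cdh5-gated cells with a sum of 0, at 148 (141 to 156) with a sum of 1, at 183 (172 to 194) with 2, at 202 (186 to 219) with 3 and at 212 (198 to 227) with 4 or more. Such intervals cover counting error only and leave out the spread between cells and between sections, and genes of the gate formed the groups. In the Wildtype-labelled embryo the steps were 112, 141, 149, 180.4 and 247. Vwf stepped from 10.4 to 52.5 between a sum of 0 and of 4 or more in the Wildtype-labelled embryo, and from 10.7 to 16.0004 in the other. The cells with higher sums were also deeper, from a median of 443.5 to 791 counts in the Knockout-labelled and from 405 to 686 in the Wildtype-labelled embryo, and the rates are shares of each cell's counts. Cells with both genes had more Igfbp3 (33.9 and 33.1) than cells with Dll4 alone (21.05 and 18.1) or Hey1 alone (19.6 and 18.4).

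Set against all other cells, gated cells had the panel's endothelial genes at the top. Cdh5 chose these cells, so the ratios are a description without a test. Cdh5 was 11.2 times the level of all other cells in the Knockout-labelled and 10.4 times in the Wildtype-labelled sections, Dll4 5.89 and 4.52 times, and Hey1 4.33 and 4.18 times. Among genes the gate did not use, those with high ratios in both embryos included Cd34, a surface marker of endothelial and blood progenitor cells (5.96 and 4.30 times), Col4a1 (4.46 and 4.60), Col4a2 (4.06 and 4.39), Vwf (2.85 and 4.16), the adhesion molecule Pecam1 (3.36 and 3.83), Tie1 (3.15 and 3.36), Col18a1 (2.69 and 3.32), Igfbp3 (2.94 and 2.78), the VEGF receptors Flt1 (2.82 and 2.65) and Kdr (3.40 and 2.25), and Ramp2 (3.53 and 2.48). Of the arterial genes, Notch1 was at 2.04 and 2.38 times and Efnb2 at 1.99 and 1.87 times. Ephb4 was at 1.27 and 1.09 times. The endocardial gene Npr3 was at 1.75 and 2.10 times and Nfatc1 at 1.20 and 0.947 times. At the other end, Igfbp5 was at 0.582 and 0.319 times the level of all other cells.

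Runx1 transcripts were held by about the same share of gated cells and of other Cdh5-gated cells of like depth. At least 1 Runx1 transcript was held by 51 of 189 gated cells (27.0%, 95% Wilson interval 21.2% to 33.7%) in the Knockout-labelled and by 41 of 153 (26.8%, 20.4% to 34.3%) in the Wildtype-labelled sections. In matched Cdh5-gated cells the shares were 26.0% and 28.7%. In Cdh5-negative cells matched to the gated cells they were 22.3% and 22.2%, and in hemoglobin-rich cells, which have fewer counts (medians 383 and 336), 14.8% and 14.1%. The interval of the gated cells thus reached down to the share in Cdh5-negative cells of the same depth. Over sections the gated share minus the matched share was -0.527 percentage points in the Knockout-labelled (n = 12, two-sided exact sign-flip permutation p = 0.875) and -0.442 in the Wildtype-labelled sections (n = 8, exact p = 1).

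Kit, the receptor of stem cell factor on hemogenic and blood progenitor cells, was found in 19.6% (14.5% to 25.8%) and 27.5% (20.997% to 35.0%) of gated cells, in 23.2% and 23.3% of matched cells and in 17.9% and 19.6% of matched Cdh5-negative cells. Both transcripts together were held by 17 (8.99%) and 16 (10.5%) gated cells, against 8.84% and 8% of matched and 4.35% and 7.19% of matched Cdh5-negative cells. Between the embryos the section means of the Runx1 share differed by 0.424 percentage points (exact permutation p = 0.938, n = 12 and n = 8) and those of the Kit share by -6.95 (exact permutation p = 0.114). Without Wildtype replicate 9 the difference for Kit was -9.20 (exact permutation p = 0.0346).

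For Gata2, Gfi1, Ptprc and Cd44 of the hemogenic list, shares over pooled cells are given as a description. Their intervals cover counting error only, and where they overlap between gated and matched Cdh5-negative cells this does not show that the shares were alike. Gata2, a transcription factor of endothelial and stem cells, was held by 28.6% (22.6% to 35.4%) and 27.5% (20.997% to 35.0%) of gated cells and 30.4% and 30.0% of matched cells, against 17.9% (13.1% to 24.1%) and 21.6% (15.8% to 28.7%) of matched Cdh5-negative cells. Gfi1, a repressor that Runx1 employs, was held by 22.8% and 25.5%, against 19.6% and 25.5% of matched Cdh5-negative cells. Ptprc, which encodes the leukocyte antigen CD45, was held by 15.3% and 21.6%, against 15.8% and 20.9%. Cd44, an adhesion receptor, was held by 37.6% (31.0% to 44.7%) and 45.8% (38.1% to 53.7%) of gated cells, against 27.6% (21.6% to 34.6%) and 34.0% (26.9% to 41.9%) of matched cells and 28.3% (22.3% to 35.2%) and 31.4% (24.6% to 39.1%) of matched Cdh5-negative cells. None of these 4 genes was tested over sections.

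**Figure D4:**
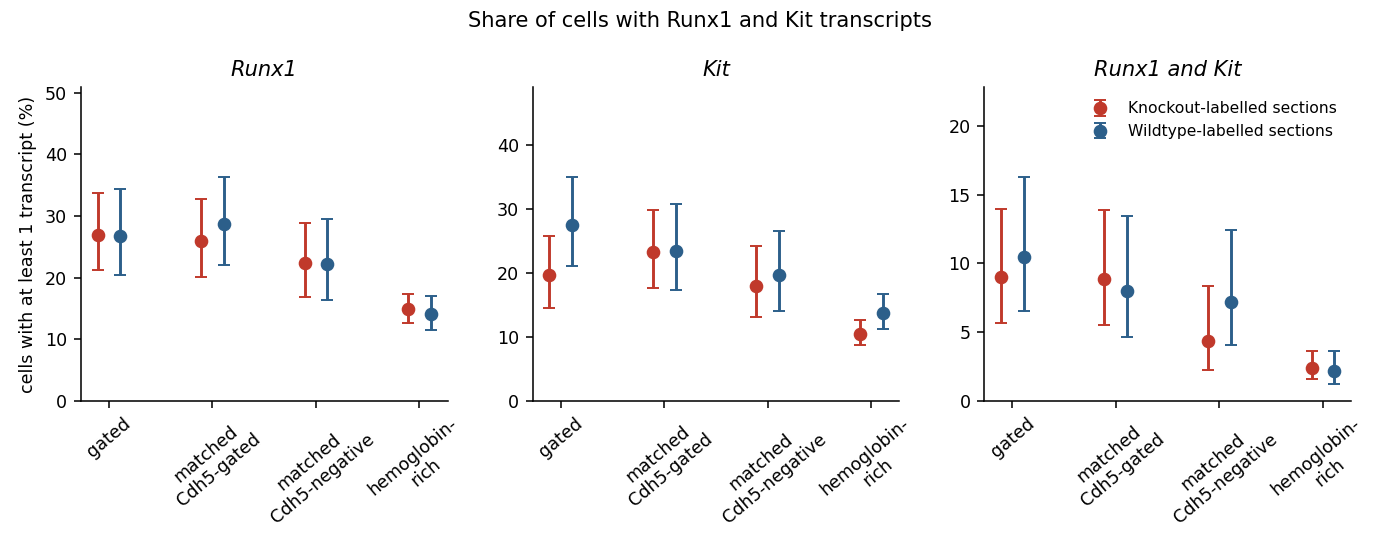
Points give the share of cells with at least 1 transcript of Runx1, of Kit and of both, with 95% Wilson intervals, in gated cells, matched Cdh5-gated cells, Cdh5-negative cells matched to the gated cells and hemoglobin-rich cells of the Knockout-labelled (red) and Wildtype-labelled (blue) sections. The shares in gated and matched cells overlap, and hemoglobin-rich cells lie lowest.

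Between the embryos, gated cells of the Knockout-labelled sections had more transcripts of a few abundant genes and of Cxcl12, and fewer of Mt1. Fau, a ribosomal protein precursor, Hsp90ab1, a chaperone, Eno1/b, glycolytic enolase, Vim, an intermediate filament, and Tubb5 and Stmn1, of the microtubules, rose together with Cxcl12, the chemokine that guides cells bearing Cxcr4. Mt1, a metal-binding metallothionein, fell. Markers of other cell types also differed in gated cells. The erythroid list, which holds the hemoglobins of the gate, summed to 109 in the Knockout-labelled and 236 in the Wildtype-labelled sections. The mural list summed to 307 and 219 per 10000 counts. Their part in the calls was not tested. The comparison used the 9 Knockout-labelled sections (163 cells) and the 7 Wildtype-labelled sections (142 cells) with at least 10 gated cells, and 8 of 258 genes tested passed in edgeR (3.1%), 7 higher (2.71%) and 1 lower (0.388%). No call remained when each section was cut to equal numbers of cells (0 of 91 genes by edgeR, 18 at an unadjusted p under 0.05) or when a sum of at least 3 was asked for (0 by edgeR, 38 at an unadjusted p under 0.05), while DESeq2 called 13 on the main cells, all 13 higher. The balance of directions also moved: with Cdh5 of at least 5, 8 genes were higher and 7 lower. Among the sections of set 1 alone 4 genes passed, 1 higher and 3 lower, and among those of set 2 alone 20 passed, 17 higher and 3 lower.

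Fau was the only one whose section values did not overlap (1 gene, 0.388% of those tested). It ran from 30.1 to 55.2 (median 38.2) transcripts per 10000 counts in the Knockout-labelled and from 13.9 to 25.9 (median 20.9) in the Wildtype-labelled sections (log2 fold change 0.91 ± 0.20 SE, edgeR adjusted p = 0.00505). Hsp90ab1 ran from 135 to 299 (median 212) and from 71.6 to 139 (median 111), a log2 fold change of 0.90 ± 0.17 SE (adjusted p = 0.000559), with overlap in a few sections. Eno1/b, whose probe name covers near-identical genes, had 1.03 ± 0.23 SE (adjusted p = 0.00672), Vim 0.80 (adjusted p = 0.00672), Tubb5 0.76 (adjusted p = 0.0109) and Stmn1 0.58 (adjusted p = 0.0423). Stmn1 lost its call without Knockout replicate 6 or without Wildtype replicate 2, 3 or 6 (adjusted p up to 0.0799). Within set 1 and within set 2 all 6 were higher, with log2 fold changes of 0.69 and 1.17 for Fau, 0.65 and 1.20 for Hsp90ab1, 0.47 and 1.55 for Eno1/b, 0.76 and 0.94 for Vim, 0.45 and 1.09 for Tubb5 and 0.62 and 0.62 for Stmn1. Over settings other than omissions, Stmn1 lost its call in 6 and kept it in 5, and Tubb5 lost it in 4 and kept it in 7. Fau, Hsp90ab1, Eno1/b and Vim each lost theirs in 3 and kept it in 8.

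These 6 genes were not particular to gated cells. They were also called, in the same direction, in the other Cdh5-gated cells, where 58 of 936 genes passed (6.2%), 52 higher (5.56%) and 6 lower (0.641%). That comparison used every section with at least 10 such cells, so it held more sections than the comparison of gated cells. The log2 fold changes there were 1.07 for Fau, 1.06 for Hsp90ab1, 1.16 for Eno1/b, 0.99 for Vim, 0.75 for Tubb5 and 0.59 for Stmn1. Cxcl12 ran from 9.63 to 34.6 (median 19.8) in gated cells of the Knockout-labelled and from 4.35 to 16.5 (median 10.9) in those of the Wildtype-labelled sections (0.90 ± 0.24 SE, adjusted p = 0.0192), and in the other Cdh5-gated cells it had 0.68 (adjusted p = 0.0517). Mt1 ran from 1.39 to 9.16 (median 5.60) and from 8.06 to 17.4 (median 11.5), a log2 fold change of -1.13 ± 0.28 SE (adjusted p = 0.00870), against -0.39 (adjusted p = 0.180) in the other Cdh5-gated cells. Mt1 had too few counts to be tested within set 1, and its log2 fold change within set 2 was -0.97 (edgeR adjusted p = 0.112). Over the settings other than omissions its call was lost in 2 and kept in 3. The difference of these changes between gated and matched cells did not pass for either (adjusted p = 0.767 for both), and the call for Cxcl12 was lost without Knockout replicate 6 (adjusted p = 0.0655). Cxcl12 also lost its call under 5 of 9 other settings. Its log2 fold change was 0.04 with Cdh5 of at least 5 (edgeR adjusted p = 0.966), 0.97 within set 1 (adjusted p = 0.141) and 0.81 within set 2 (adjusted p = 0.145).

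**Figure D5:**
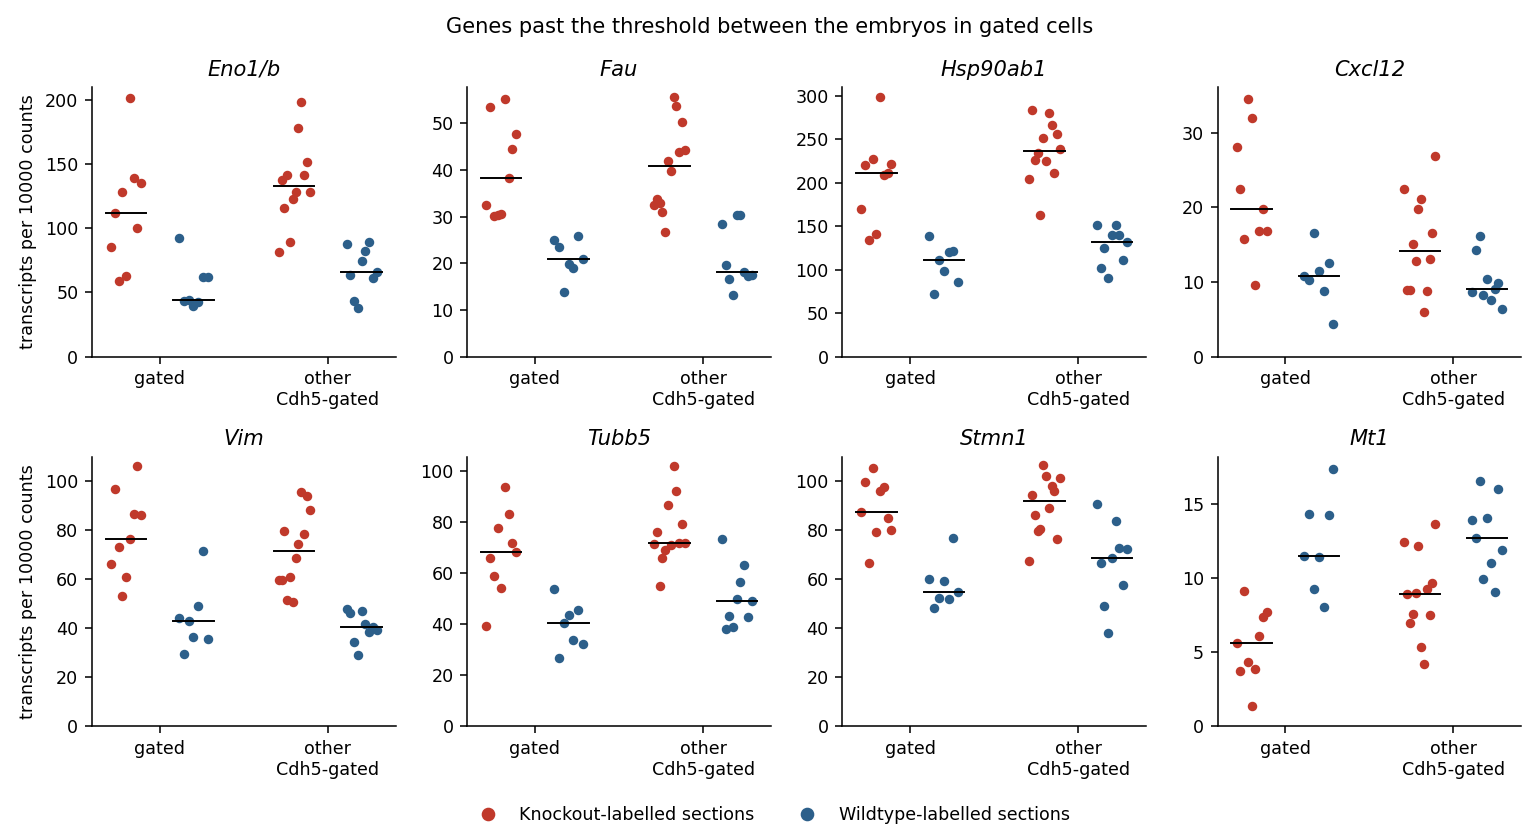
Each point is a section of the Knockout-labelled (red) or Wildtype-labelled (blue) embryo, the black bar is the median, and the y axis gives transcripts per 10000 counts of the 8 genes that passed between the embryos, in gated cells and in the other Cdh5-gated cells. Fau is the gene whose gated cells do not overlap between the embryos.

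The genes that define arterial and hemogenic cells did not pass between the embryos. Dll4, with no test, had medians of 21.6 and 24.9 transcripts per 10000 counts in gated cells, and Hey1, also of the gate, had 20.8 and 22.5. Notch1 had a log2 fold change of -0.25 ± 0.26 SE (edgeR adjusted p = 0.588), Efnb2 of -0.12 ± 0.23 SE (adjusted p = 0.796), Mecom of -0.60 ± 0.24 SE (adjusted p = 0.117) and Gata2 of -0.44 ± 0.30 SE (adjusted p = 0.367). Col4a1 had -0.01 ± 0.17 SE (adjusted p = 0.950). Of the lists, arterial (4 of 7 tested), Notch pathway (4 of 11), hemogenic (3 of 7), basement membrane (6 of 7) and pan-endothelial (16 of 17) had no gene past the threshold, with medians of -0.19, -0.19, -0.47, -0.05 and -0.16 beside -0.08 over all 258 genes. Vwf had -0.91 ± 0.32 SE (adjusted p = 0.104), with -1.51 among the sections of set 1 and -0.28 among those of set 2, and Acta2 had 0.75 ± 0.51 SE (adjusted p = 0.389), with 1.35 and 0.05. No gene of the NF-kB and inflammation list had enough counts to be tested.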

How the data were processed

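CosMx counted transcripts in 22 sections of 2 embryos. The authors segmented the cells with AtoMx and deposited whole-number count values per gene and cell, 1 table per section, before any filter on cells; the authors used Seurat for later steps. Cells, genes and sections were taken as deposited, and a section's depth was 169038 to 887904 counts. Groups followed the genotype label. Members and gene lists were chosen with earlier results of these data known.

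Counts of gated cells and of matched Cdh5-gated cells were summed per section. The quasi-likelihood test of edgeR 4.0.16 (R 4.3.3) was used with TMM scaling, its filter on low counts, the section as a block within the arterial contrast, and Benjamini-Hochberg adjustment over all genes tested at a threshold of 0.05. Fold changes are on the log2 scale. The genotype comparison had no block. DESeq2 1.42.0 and limma 3.58.1, with the set as a random block, were alternatives. Shares were compared over sections by exact permutation tests (scipy 1.17.1 under Python 3.11.15, with pandas 2.3.3 for the tables and numpy 2.4.6 for the arrays), and matplotlib 3.10.9 drew the figures. No t-test was used. The edgeR fits were tested on simulated counts. The sign-flip test, a form of the permutation test between 2 groups and the thinning were checked on cases with known answers. The other steps were not checked this way.

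Other gates, totals of at least 200, other matching, scaling and filters, each set alone and each section left out were tried. No doublet caller was run, and leaving out the highest 5% of totals served as an alternative. Named were the targeted, gate and list genes, the genes past the threshold in both embryos, those past it between the embryos with the same sign in both sets, and the 3 lowest p-values of the difference. Btf3, Mif, Igfbp5, Igf1, Igf2r, Meg3, Mt1, Naca, Ybx3 and Tubb5 within the average were named after their values were seen.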

Additional observations from a re-analysis of the deposited data

Results flagged for a closer look

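Among the Wildtype-labelled sections, 1 section stood far from the others in the gated share after thinning to 100 counts, with 0.354%, and this was replicate 4, which held only 2 gated cells. Eno1/b reached 92.6 transcripts per 10000 counts in gated cells of Wildtype replicate 1, far above the other 6 sections of that embryo that were compared, which ran from 39.6 to 61.8. Stmn1 reached 76.9 in Wildtype replicate 7, where the other 6 ran from 48.1 to 60.04. Each was picked out because its gap to the nearest section was large beside the whole range of its group. In all 33 groups of sections were examined this way, and chance alone picks out about 1 in 20 groups.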

How the results depend on the processing

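No paired analysis was possible because the replicate numbers follow the order of the samples and no label ties a section of 1 embryo to a section of the other. The set as a random block had a consensus correlation of 0.0280, and with it limma called 6 genes higher and 1 lower between the embryos.

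The gated share after thinning (Knockout minus Wildtype, 0.155 percentage points) was -0.00636 with a sum of at least 3, -0.167 with Cdh5 of at least 5, -0.000472 without the highest 5% of totals, -0.143 in set 2 and -0.0740 to 0.257 with each section left out. The share of Cdh5-gated cells was 0.341 with Cdh5 of at least 5 and -3.43 to 0.703 with each section left out, and gated cells per section differed by 0.967 in set 2 and by -4.58 to -1.34 with each section left out. No p-value of these fell below 0.05.

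Runx1 in gated minus matched cells of the Knockout sections was 0.548 with totals of at least 200, 2.78 in set 2, 8.41 without matching (exact p = 0.0322), 1.65 with matching on Cdh5 and -2.59 to 1.70 with each section left out. In the Wildtype sections it was 2.79 with Cdh5 of at least 5, 1.601 in set 2, 3.72 without matching, 3.37 with matching on Cdh5 and -3.87 to 2.67 with each section left out. Between the embryos it was -6.41 with Cdh5 of at least 5, -2.94 without the highest 5% of totals, -0.0880 in set 2 and -1.63 to 3.004 with each section left out. Kit in gated minus matched cells was -4.41 in Knockout (exact p = 0.320) and 3.20 in Wildtype sections (exact p = 0.5). With each section left out it ran from -6.83 to -2.54 and from 0.291 to 5.24. In Wildtype cells it was -3.13 in set 2 and -0.778 with matching on Cdh5, in Knockout cells 0.632 without matching, and between the embryos -9.20 to -5.14 with each section left out.

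Dll4 in Hey1-positive Wildtype cells was higher by 7.57 in set 1 (exact p = 0.25) and 10.6 in set 2 (exact p = 0.0625), where fewer sections allow no smaller p, and by 0.648 with at least 1 transcript. In Knockout cells it was higher by 6.58 with at least 1 transcript and by 3.91 to 7.26 with each section left out, with an exact p of 0.0117 without replicate 1. Hey1 in Dll4-positive Knockout cells was higher by 5.59, and by 1.35 to 7.18 with each section left out.

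Calls in the arterial contrast of the Wildtype sections (12) were 3 with Cdh5 of at least 5, 5 with matching on Cdh5, 6 without the filter on low counts, 6 without matching, 1 in set 1, 23 in the average of both embryos, and 5 to 12 with each section left out (5 without Wildtype replicate 2, 6 or 9, 6 without 3, 7 without 7). Those of the Knockout sections (10) were 22 without matching, 4 in set 2, 23 in the average and 6 to 16 (6 without Knockout replicate 4, 16 without 8). The difference between embryos (0) had 1 call with matching on Cdh5, in set 1 and without Knockout replicate 8. Calls between the embryos (8, 7 of them higher) were 15 with Cdh5 of at least 5 (8 higher), 13 by DESeq2 (13 higher), 0 with a sum of at least 3, 0 with equal numbers of cells, 16 without the filter, 4 in set 1 (1 higher), 20 in set 2 (17 higher) and 6 to 14 (14 without Wildtype replicate 1). The cause of these shifts was not tested. Of 1559 recomputed values of single named genes, 1222 kept their side of the threshold, 337 lost it and 0 changed sign.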
